A study of Mus musculus with 2 samples.

Results

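Spots with the least scar matrix RNA were examined in heart sections from 2 mice after neonatal myocardial infarction. A spot is a small barcoded area of a Visium slide that captures RNA from several cells lying over it. Members were chosen by a measured value. Among spots with at least 500 UMIs (unique molecular identifiers, counted RNA molecules), the fifth of each section with the smallest share of UMIs from Col1a1, Col1a2, Col3a1, Postn, Fn1, Cthrc1, Tnc and Lox was taken. This gave 162 of 811 spots (PD1 Het) and 170 of 851 (PD1 KO), or 332 of 1662 spots with enough UMIs and of 1671 spots in all. They are called low-matrix spots below, and the remaining 649 and 681 spots are called other spots.

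Throughout, where a value is given for each section without a label, PD1 Het comes first and PD1 KO second. Both hearts came from C57BL/6 mice in which the left anterior descending artery was tied at postnatal day 2, and both were frozen 7 days after surgery. One mouse was PD1 Het, titled PD1 +/-, with 1 of its 2 copies of Pdcd1 lost, the gene for PD-1, an inhibitory receptor of T cells. The other was PD1 KO, titled PD1 -/-. Neither a wild-type nor a sham-operated heart was analysed here, and each genotype is 1 heart. Each section was transverse, 10 µm thick, taken 200 µm below the suture and permeabilised for 18 minutes. With 1 section per genotype no test was possible, and spots of one section are not replicates of a condition. All intervals are 95% exact intervals that cover counting error only.

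After occlusion of a coronary artery, fibroblasts and macrophages replace the lost muscle with matrix built of fibrillar collagens, fibronectin and periostin. Myocardium away from the scar keeps working ventricular cardiomyocytes, which contract through the sarcomere, cycle calcium through the sarcoplasmic reticulum and draw most of their energy from fatty acid oxidation in mitochondria. Cardiomyocytes next to an injury are known to re-express fetal genes such as the natriuretic peptide genes Nppa and Nppb and the slow myosin gene Myh7. In the days after birth mouse cardiomyocytes also pass from glycolysis to fatty acid oxidation and largely leave the cell cycle.

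The share of matrix UMIs that chose the spots had a median of 0.179% (0.0777 to 0.221) over PD1 Het members and 0.259% (0.140 to 0.310) over PD1 KO members. The medians of the other spots were 0.381% and 0.540%, with maxima of 6.64% and 9.78%. These shares rest on few molecules, with medians of 28 and 78 matrix UMIs per low-matrix spot. No gap separated the chosen spots from the rest. In the PD1 Het section the last spot inside had 53 matrix UMIs of 23957 (0.221%) and the first outside 33 of 14847 (0.222%). In the PD1 KO section these were 105 of 33837 (0.310%) and 137 of 44000 (0.311%). The threshold of the PD1 KO section was thus the higher one, so the chosen spots of the 2 sections do not have equal matrix content.

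Cardiomyocyte RNA was abundant in the chosen spots of both sections. Myh6, the fast myosin heavy chain of the adult mouse ventricle (chromosome 14, 54941921 to 54966927, GRCm38), ranged from 6596 to 15576 CPM (UMIs per 1000000 UMIs) over the PD1 Het low-matrix spots, with a median of 10671. Over the PD1 KO low-matrix spots it ranged from 8563 to 15224 CPM, with a median of 11796. Other spots had medians of 10459 and 10849 CPM and reached down to 1926 and 254 CPM, so the ranges overlapped, and spots with less Myh6 than any low-matrix spot lay below them. Tnni3, the inhibitory troponin subunit (chromosome 7, 4518305 to 4524229), had at least 4078 and 3909 CPM in every low-matrix spot. Pln, the phospholamban gene that restrains the calcium pump (chromosome 10, 53337667 to 53345987), had at least 1394 and 2647 CPM. Ryr2, the calcium release channel (chromosome 13, 11553102 to 12106945), is less abundant and had no UMI in 2 and 1 of the low-matrix spots.

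**Figure D1:**
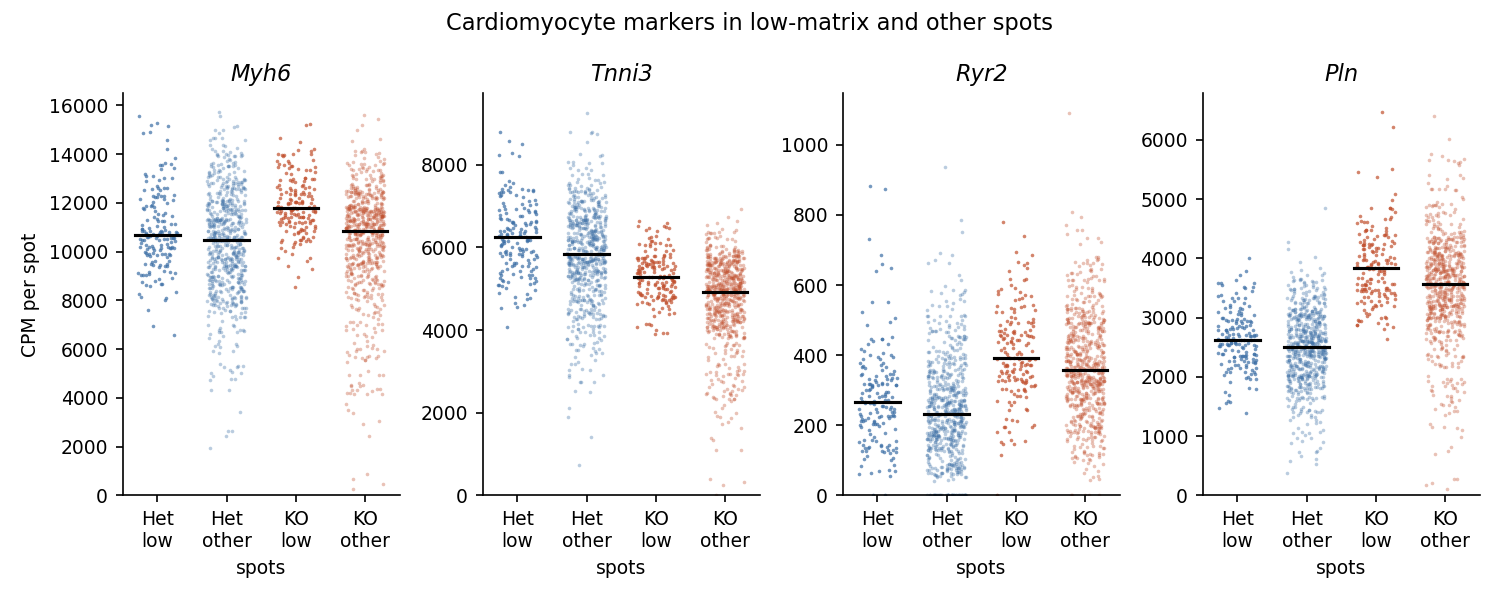
CPM per spot (vertical axes, from 0) of Myh6, Tnni3, Ryr2 and Pln in low-matrix and other spots of the PD1 Het and PD1 KO sections; each point is 1 spot and the bar is the median over spots. Low-matrix spots overlap the other spots. For Myh6 they lack only the lowest values, with medians of 10671 and 11796 CPM against 10459 and 10849 CPM. Some low-matrix spots had no Ryr2 UMI.

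Atrial markers were in part absent from these spots. Of the 7 markers Sln, Myl7, Bmp10 and Mybphl had 0 UMIs in all 162 low-matrix spots of PD1 Het, and 1, 1, 0 and 1 UMIs in the 170 of PD1 KO. A count of 0, read as at most 3 counts, leaves room for 1.13 and 0.577 CPM. The other 3 were present, with Nppa at 89.4 and 161 CPM, Myl4 at 13.1 and 17.1 CPM and Stard10 at 8.64 and 5.77 CPM. The list summed to 111 and 185 CPM in low-matrix spots, against 465 and 2660 CPM in other spots. That difference was mostly Nppa. In the fifth of spots with the largest matrix share the list summed to 1198 and 9328 CPM. Nppa made up 1117 and 9256 CPM of that, Myl4 28.4 and 54.3 CPM and Stard10 47.0 and 13.6 CPM. Sln, Myl7, Bmp10 and Mybphl were thus scarce there too. Myl2, the ventricular light chain, had 16813 and 14471 CPM in low-matrix spots. Whether the spots lay remote from the infarct was not analysed here, because spot positions were not used. The markers show cardiomyocyte-rich tissue, which spots of middle matrix share contain in nearly the same amount.

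Depth and composition differed between the sections. Low-matrix spots held 2663519 and 5202190 UMIs, with medians of 15916 and 30601 UMIs per spot, against 15384 and 26470 in other spots. Mitochondrial genes took 29.0% and 18.6% of UMIs in low-matrix spots and 24.7% and 15.1% in other spots. The sections also differed in sex-linked RNA, with 96 and 0 Xist UMIs and 0 and 318 UMIs of Y-linked Eif2s3y in low-matrix spots, so genotype cannot be told apart from sex, from animal or from slide area. The 2 sections shared 225 spot barcodes, and 2 of these were low-matrix in both.

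Spots of each section were also divided into 5 quintiles by matrix share, of which the low-matrix spots are the lowest. The 20 sarcomere genes together made up 77811 CPM in the low-matrix quintile of the PD1 Het section, and 78038, 76707, 74926 and 65089 CPM in the next quintiles up. The same sums were 83366, 81847, 80659, 77287 and 62404 CPM in the PD1 KO section. Sarcomere RNA thus varied little over the lower quintiles and was least in the quintile with the most matrix. Fibroblast markers, in contrast, went up at each step, over 1116, 1376, 1736, 2147 and 4262 CPM (PD1 Het) and 1199, 1510, 1948, 2526 and 4175 CPM (PD1 KO). Macrophage markers went from 232 to 671 CPM and from 232 to 1248 CPM between the lowest and the highest quintile. The mitochondrial share went the other way, from 29.0 to 19.4% and from 18.6 to 12.1%. Its part in the choice of spots was not tested.

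**Figure D2:**
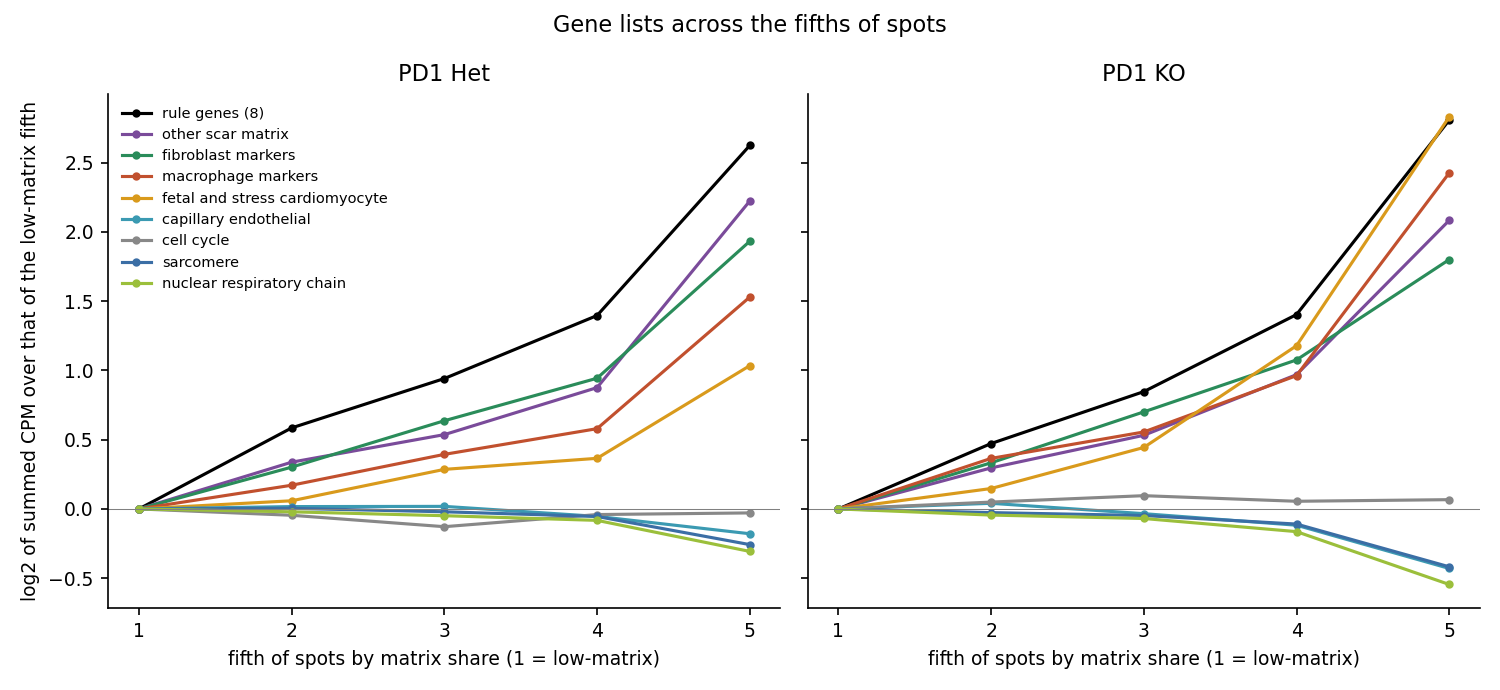
log2 of the summed CPM of each gene list over its sum in the low-matrix quintile (vertical axis), across the quintiles of spots ordered by matrix share (horizontal axis, 1 is low-matrix), for the PD1 Het (left) and PD1 KO (right) section. The lists of fibroblast, macrophage, matrix and stress genes climb with the quintiles, while sarcomere, respiratory chain and capillary genes bend down mainly in the last quintile; the 8 rule genes ordered the spots and rise by construction.

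For each gene the summed CPM of low-matrix spots was divided by that of the other spots of the same section, and the log2 ratio was set against the median of 6130 genes, those that reached 200 UMIs in each section. That median lay at a log2 CPM ratio of -0.13 in both sections, and ratios below are relative to it. The choice of spots used this contrast, so the ratios describe the spots and support nothing by themselves. In spots, fewer cells of a type and less RNA per cell cannot be told apart. A ratio of 1.5-fold was counted. No gene (0%) was 1.5-fold higher in low-matrix spots in both sections, with 10 genes (0.163%) so in PD1 Het and 11 (0.179%) in PD1 KO. In both sections 153 genes (2.5%) were 1.5-fold lower, out of 268 (4.37%) in PD1 Het and 219 (3.57%) in PD1 KO. By these counts the low-matrix spots were set apart by genes they had less of. Of the 153 genes, 7 belonged to the 8 genes of the choice, 37 to another gene list and 109 to none. The eighth, Tnc, had too few UMIs to be counted. With the other spots limited to those outside the quintile with the most matrix, 43 genes were lower in both sections, and against the second quintile alone 0 of 2840 were.

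Contractile genes stood slightly but uniformly above the median gene. All 20 sarcomere genes did so in both sections, against 33.5% of all genes tested, with list medians of 0.17 and 0.23. Myh6 had a log2 ratio of 0.19 (0.17 to 0.21) and 0.30 (0.29 to 0.32), and Myl2, the ventricular regulatory light chain, 0.22 and 0.24. Ttn, the giant spring of the sarcomere, had 733 against 723 CPM and 1112 against 1082 CPM, or 0.15 and 0.17. On the plain CPM scale, without the median gene, the sarcomere list lay at 0.04 and 0.10. The excess over the other spots was thus small on either scale, and Tnni3, at 0.23 and 0.27, and Pln, at 0.19 and 0.25, were within the same narrow band.

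Genes of calcium handling and of the cell membrane were less uniform. Of 14 calcium handling genes with enough UMIs, 12 lay above the median gene in both sections, with medians of 0.18 and 0.14. Ryr2 had 276 against 250 CPM and 405 against 368 CPM, a log2 ratio of 0.27 in each section. Atp2a2, the calcium pump that refills the sarcoplasmic reticulum, lay at 0.17 and 0.28. Of 10 ion channel and pump genes 7 lay above the median gene in both, with medians of 0.09 and 0.08, and of 13 intercalated disc genes 9 did, with medians of 0.06 and 0.09. On the plain CPM scale the medians of these last lists were below 0, at -0.04 and -0.05 and at -0.07 and -0.04. Gja1, the gap junction protein connexin 43, lay at 0.17 and 0.13.

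Genes of oxidative metabolism stood higher than the contractile genes. Their lists had the same sign on both scales, as did the sarcomere and calcium handling lists. All 19 fatty acid oxidation genes lay above the median gene in both sections, with medians of 0.23 and 0.31, or 0.10 and 0.18 by plain CPM. Acadm, the medium-chain acyl-CoA dehydrogenase, had 408 against 371 CPM (0.27, 0.17 to 0.37) and 726 against 622 CPM (0.35, 0.30 to 0.41). Cpt1b, which passes fatty acids into mitochondria, lay at 0.24 and 0.31. All 30 nuclear genes of the respiratory chain lay above the median gene, from 0.17 to 0.32 and from 0.24 to 0.37. So did all 15 citric acid cycle genes (0.20 and 0.28) and all 7 genes of energy transfer (0.19 and 0.25). Ckmt2, the mitochondrial creatine kinase of the sarcomere, had 713 against 600 CPM and 1136 against 941 CPM, with log2 ratios of 0.38 (0.30 to 0.45) and 0.40 (0.36 to 0.44).

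The 13 genes of the mitochondrial genome exceeded these, with medians of 0.36 and 0.43. mt-Co1, a subunit of cytochrome oxidase, lay at 0.37 and 0.44. Glycolysis genes were mixed, with 12 of 16 above the median gene in both sections and medians of 0.15 and 0.15. Ldhb, the lactate dehydrogenase form of oxidative muscle, lay at 0.33 and 0.32, and Hk1, the hexokinase form prominent before birth, at 0.08 and -0.02. Of 10 genes known to respond to fatty acid receptors of the PPAR type, 8 lay above the median gene in both sections, with medians of 0.14 and 0.34. Cd36, the fatty acid translocase, lay at 0.26 and 0.24.

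Mitochondrial and haemoglobin genes left out, the genes that stood highest in both sections did not reach 1.5-fold, and the largest of the smaller ratios, that of Fbp2, was 1.36-fold. Fbp2, the muscle fructose bisphosphatase, had 27.0 against 21.8 CPM and 30.2 against 21.9 CPM, with log2 ratios of 0.44 (0.04 to 0.83) and 0.59 (0.32 to 0.86). Tfrc, the transferrin receptor that imports iron, had 109 against 88.6 CPM and 321 against 244 CPM, at 0.43 (0.23 to 0.62) and 0.53 (0.44 to 0.61). Tfrc went down from the low-matrix to the highest quintile, from 109 to 75.4 CPM and from 321 to 179 CPM. Car4, a carbonic anhydrase of capillary endothelium and muscle membranes, lay at 0.39 and 0.52, with an interval that reached -0.03 in the PD1 Het section. Pptc7, a mitochondrial phosphatase, lay at 0.49 and 0.42, Lrtm1 at 0.37 and 0.64, and Irx4, a ventricular transcription factor, at 0.40 and 0.35. Homer2, Snhg15, Sez6l2, Ddc, Adhfe1, Trim7, Slc26a10 and Retsat completed the 15 highest genes of this ranking. Adhfe1 lay at 0.61 in the PD1 KO section but at -0.48 when each spot was thinned to 5000 UMIs.

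Matrix and fibroblast genes were well below the median gene in low-matrix spots. Col1a1, the main chain of type I collagen and one of the genes that chose the spots, had 276 against 965 CPM and 443 against 1704 CPM. The 7 counted genes of the choice had medians of -1.36 and -1.81, which the choice itself fixes. Matrix genes that took no part in it followed, and 13 of 15 were 1.5-fold lower in both sections, with medians of -0.91 and -1.08. Eln, the elastin gene, had 182 against 1036 CPM (-2.37, -2.51 to -2.24) and 296 against 952 CPM (-1.56, -1.63 to -1.48). Ltbp2, which binds to elastic microfibrils, had 8 and 7 UMIs in all low-matrix spots together and log2 ratios of -2.95 (-4.18 to -1.95) and -4.96 (-6.28 to -3.91). Spp1, the osteopontin gene of injury macrophages and wounds, had 4 and 20 UMIs and lay at -3.69 and -3.12.

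Fibroblast RNA was lower in the chosen spots but not missing from them. Of 11 counted fibroblast markers 9 were 1.5-fold lower in both sections and 0 lay above the median gene, with medians of -0.88 and -0.95. Dcn, the decorin gene, had 271 against 550 CPM and 315 against 590 CPM, with UMIs in 157 of 162 and 169 of 170 low-matrix spots. Pdgfra, the growth factor receptor of cardiac fibroblasts, had 16.5 against 37.8 CPM and 21.9 against 52.7 CPM. Gsn and Lum lay at -0.88 and -0.82 and at -1.09 and -0.87. Basement membrane genes, which muscle and capillaries also make, differed less, at medians of -0.22 and -0.24, with 1 of 14 genes, Col15a1, 1.5-fold lower in both sections (-0.62 and -0.73). Among the other genes of the 15 lowest were Cilp (-2.63 and -3.37), Sfrp2, Dkk3, Col16a1, Igfbp6, Fibin and Nupr1, the complement gene C3, and Tagln, an actin-binding protein of smooth muscle and activated fibroblasts (-2.21 and -1.54).

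Of 14 counted fetal and stress genes of cardiomyocytes, Nppa and Clu were 1.5-fold lower in low-matrix spots of both sections. Nppa (chromosome 4, 148000722 to 148002079), which is also an atrial marker, had 89.4 against 428 CPM and 161 against 2624 CPM, with log2 ratios of -2.13 (-2.32 to -1.94) and -3.90 (-4.00 to -3.80). Its highest low-matrix spot had 1285 and 1066 CPM, while other spots reached 19557 and 60302 CPM, so no low-matrix spot came near the upper end. Across the quintiles Nppa had 89.4, 119, 256, 323 and 1117 CPM (PD1 Het) and 161, 253, 524, 1881 and 9256 CPM (PD1 KO). Clu, the secreted chaperone clusterin, was also 1.5-fold lower in both sections, at -0.86 (-1.07 to -0.66) and -2.18 (-2.31 to -2.06). Myh7 differed between the sections, with 32.3 against 44.2 CPM (-0.32, -0.67 to 0.01) and 38.8 against 164 CPM (-1.95, -2.16 to -1.75). That difference between sections was not tested. Some other cell markers moved with Nppa. From the lowest to the highest quintile Myl4 went from 13.1 to 28.4 CPM and from 17.1 to 54.3 CPM, and Stard10 from 8.64 to 47.0 CPM and from 5.77 to 13.6 CPM. Summed endocardial markers went from 31.9 to 227 CPM and from 42.9 to 173 CPM, and conduction and trabecular genes from 91.6 to 269 CPM and from 108 to 234 CPM. Sln, Myl7, Bmp10 and Mybphl were at or near 0 in low-matrix spots, as given above. In the highest quintile Sln had 0.44 and 0.52 CPM and Myl7 3.99 and 3.66 CPM. Bmp10 had 0 CPM there in both sections, and Mybphl 0.44 and 0 CPM. The part of these cell types in the Nppa result was not tested.

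Other stress genes were less depleted in these spots. Ankrd1, a stretch-responsive protein of the sarcomere, had 410 against 497 CPM and 506 against 878 CPM, or -0.15 and -0.66. Acta1, the skeletal actin of the fetal ventricle, lay at -0.28 and -0.57. Nppb lay at 0.29 (0.08 to 0.50) and -0.20 (-0.34 to -0.06), so the 2 natriuretic peptide genes had unlike ratios. In the whole list of 14 counted fetal and stress genes, 10 lay below the median gene in both sections, 2 above, and the medians were -0.23 and -0.37. Of all genes tested 33.5% lay above it in both sections. About the same share lay below, since the median splits the genes of each section evenly.

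Immune cell RNA was sparse in the chosen spots, though T cell, B cell and neutrophil markers were sparse in the other spots too. Of 7 counted macrophage markers 4 were 1.5-fold lower in both sections, and 0 lay above the median gene, with medians of -0.60 and -0.90. Lyz2, lysozyme, had 51.4 against 90.0 CPM and 54.0 against 155 CPM, and C1qb 38.7 against 65.5 CPM and 33.8 against 79.5 CPM. Csf1r and Fcer1g were the other 2 of the 4. Markers of resident macrophages were less depleted, at medians of -0.38 and -0.28 over 4 counted genes. Cd74, the invariant chain of MHC class II, was the only counted gene of its list and had 7.51 against 18.0 CPM and 7.30 against 50.3 CPM. Cma1, a mast cell protease, had 11 and 12 UMIs and lay at -2.44 and -2.59. Among T cell genes, Cd3e had 0 and 2 UMIs and Trac 3 and 4 UMIs in low-matrix spots. No gene of the T and NK cell, B cell, neutrophil, Schwann cell or epicardial lists had enough UMIs to be counted. That filter covers the whole section, so it says nothing of low-matrix spots in particular. T and NK cell markers summed to 3.38 against 5.71 CPM and 6.73 against 18.3 CPM. B cell markers had 19.9 against 26.3 CPM and 17.9 against 19.1 CPM, and neutrophil markers 4.51 against 14.1 CPM and 8.84 against 9.17 CPM.

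Capillary RNA, by contrast, accompanied the muscle. Of 15 capillary endothelial markers 10 lay above the median gene in both sections, against 33.5% of all genes tested, and 0 were 1.5-fold lower. Their medians were 0.13 and 0.23, but 0.00 and 0.10 by plain CPM, so the PD1 Het section showed no excess on that scale. Fabp4, the fatty acid binding protein of capillary endothelium, had 1179 against 1089 CPM and 1451 against 1325 CPM, or 0.25 and 0.26. Aqp1, a water channel of endothelium and red cells, lay at 0.25 and 0.54, and Pecam1, a marker of all endothelium, at 0.00 and 0.07. The 10 pericyte markers had medians of -0.01 and -0.07, and Rgs5 lay at -0.05 and -0.06. Vwf, of larger vessels and endocardium, was lower, at -1.29 (-1.78 to -0.83) and -0.61 (-0.90 to -0.34). Smooth muscle Myh11 had 11 and 62 UMIs in low-matrix spots, and lay at -2.34 and -0.88.

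Haemoglobin RNA went opposite ways in the 2 sections. The red blood cell genes together had 5357 CPM in low-matrix and 8677 CPM in other spots of the PD1 Het section, and 10508 against 7103 CPM in the PD1 KO section. Medians per spot were 2798 against 2780 CPM and 6231 against 3823 CPM, so the PD1 Het medians were close, while its highest other spot reached 255697 CPM and its highest low-matrix spot 45259 CPM. Hba-a1 lay at -0.72 (-0.78 to -0.66) and 0.73 (0.70 to 0.76). Hba-a1 and Hba-a2, and Hbb-bs and Hbb-bt, are near-identical pairs whose reads the counting could split, so single values are uncertain. Cell cycle genes showed no common direction, with 6 of 12 above the median gene in both sections and medians of 0.23 and 0.04.

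**Figure D3:**
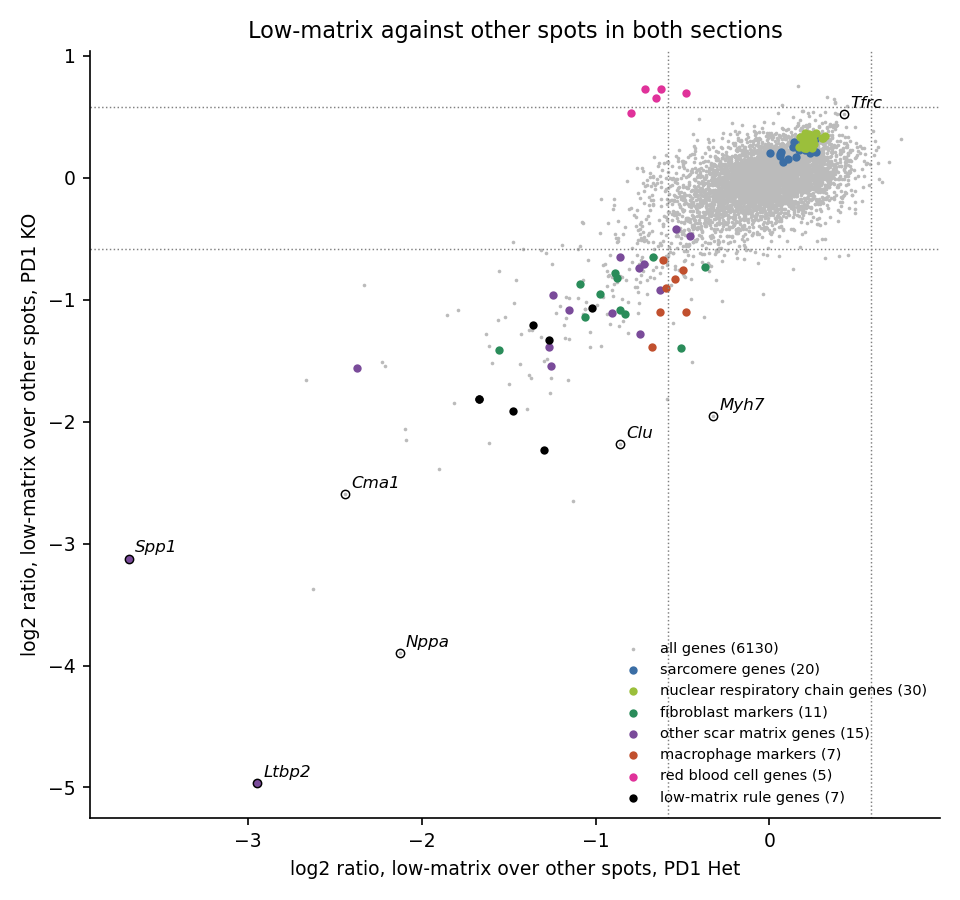
log2 ratio of low-matrix over other spots, relative to the median gene, in the PD1 Het (horizontal) and PD1 KO section (vertical); each point is 1 of 6130 genes, coloured by list, and dotted lines mark 1.5-fold. The upper right corner holds no gene beyond both lines, the matrix, fibroblast and macrophage lists extend to the lower left, and the red blood cell genes lie at the upper left.

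The chosen spots also varied among themselves. For each of the 1372 genes with at least 200 UMIs in the low-matrix spots of each section, the coefficient of variation between spots beyond counting error was computed. Its median over genes was 0.166 and 0.139 in low-matrix spots, below the 0.215 and 0.185 of other spots. The summed sarcomere genes varied by 0.103 and 0.0708, and the summed nuclear respiratory chain genes by 0.0739 and 0.0776. Sums vary less than single genes, so these values are not comparable with the medians. Sarcomere sums per spot ran from 55789 to 103211 CPM and from 63153 to 97378 CPM.

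Haemoglobin genes varied most among those named here, Hba-a1 by 1.27 and 1.92. The ranking that follows leaves out haemoglobin, mitochondrial, ribosomal protein genes, Xist and Y-linked genes, as do the rankings of ratios above and below. Genes were ranked by the smaller value of the 2 sections. The stress genes Acta1 (0.94 and 1.33), Nppb (0.80 and 1.01) and Nppa (1.13 and 0.62) came first. Ankrd1 varied by 0.57 and 0.44 and came after Mfap5 and H19. Nppb per low-matrix spot had a median of 63.4 and 73.8 CPM and a maximum of 506 and 925 CPM, and Acta1 a median of 56.6 and 121 CPM and a maximum of 635 and 2169 CPM. In other spots the variation of Nppb was 0.78 and 0.79, so Nppb varied at least as much where matrix was scarce. Nppa was different, with 2.41 and 2.72 in other spots. The remaining genes of the 15 most variable were Mfap5 (0.65 and 0.58) and H19 (0.63 and 0.56), the vessel and matrix genes Eln, Mgp, Fbln2 and Ogn, and Apoe, Eif2s3x, Podxl, Aqp1 and Pacsin2.

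Some of these genes tended to be high in the same spots. Nppb and Ankrd1 had a Spearman correlation of 0.42 and 0.40 over the 162 and 170 low-matrix spots. The correlation of Nppa with Ankrd1 was 0.08 and 0.41, that of Acta1 with Nppb 0.21 and 0.22, and that of Eln with Mgp 0.21 and 0.34. Nppb and Ankrd1 themselves correlated with the matrix share of the spots at 0.04 and -0.12 and at -0.01 and 0.03. For Nppa this was 0.13 and 0.14, and for Acta1 0.14 and -0.04. Eln correlated with the matrix share at 0.11 and 0.32, and Mgp at 0.17 and 0.21. The part of the matrix share in the pairs was not tested. Spots of a section share the library and neighbouring spots share tissue, so these values are descriptions of 135 pairs computed, with no p.

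**Figure D4:**
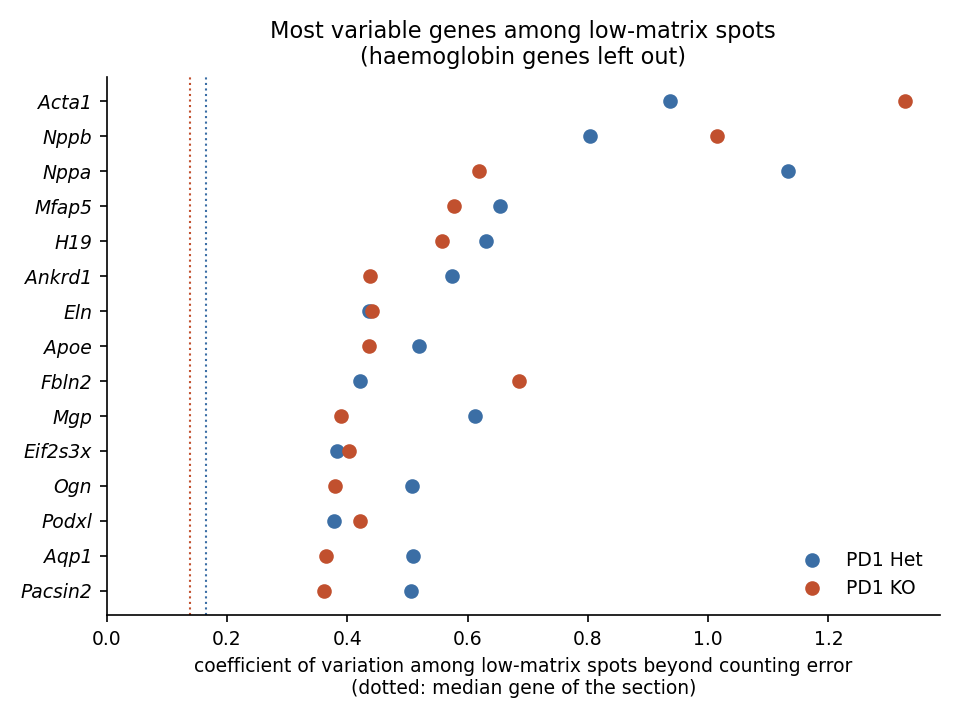
Coefficient of variation between low-matrix spots beyond counting error (horizontal axis) for the 15 most variable genes of the ranking without haemoglobin genes, PD1 Het blue and PD1 KO red; dotted lines mark the median gene of each section, 0.166 and 0.139. Acta1, Nppb and Nppa lie farthest to the right, each above 0.6 in both sections.

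The genotypes were then set side by side within low-matrix spots, where matrix RNA is scarcest. This asks how myocardium low in matrix differed between the PD1 KO and the PD1 Het heart, and there is no replicate check. Genes were compared when low-matrix spots of both sections together held 100 UMIs of them, which 7115 did. The median gene had a log2 CPM ratio of 0.30 (PD1 KO over PD1 Het), and ratios below are relative to it. Relative to that median, 439 genes (6.17%) were at least 1.5-fold higher in the PD1 KO low-matrix spots and 264 (3.71%) at least 1.5-fold lower. By plain CPM the split was 1525 and 33 genes, and by CPM without mitochondrial genes 683 and 144. With 1 matrix share as the limit in both sections, which left 37 PD1 KO spots, it was 207 and 202.

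The 4 cardiomyocyte markers differed little or in both directions. Myh6 had 10782 and 11912 CPM in low-matrix spots, a relative log2 ratio of -0.16 (-0.18 to -0.14). Tnni3 lay at -0.53 (-0.56 to -0.50), Ryr2 at 0.25 (0.13 to 0.37) and Pln at 0.25 (0.21 to 0.29). Of 20 sarcomere genes 0 passed 1.5-fold either way, and their median was -0.08 relative to the median gene but 0.23 by plain CPM. Over all genes compared, 6.17% were 1.5-fold higher and 3.71% lower. Jph2, the junctophilin that couples surface membrane and sarcoplasmic reticulum, was lower, with 297 and 220 CPM (-0.74, -0.87 to -0.60). Kcnj2, an inward rectifier channel, was higher, with 11.6 and 30.8 CPM and a ratio whose interval ran from 0.54 to 1.70. The value of Jph2 in other spots was -0.79, close to that in low-matrix spots.

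Genes known to respond to fasting and fatty acids were among those highest in PD1 KO relative to PD1 Het. Pdk4, the kinase that shuts off pyruvate oxidation (chromosome 6, 5483351 to 5496309), had UMIs in 80 of 162 and 169 of 170 low-matrix spots. Its median per spot was 0 and 250 CPM, its highest spot 169 and 539 CPM, and its summed level 37.2 and 250 CPM. Only 1 PD1 KO low-matrix spot lacked a Pdk4 UMI, but the spots were also deeper in that section. The relative log2 ratio was 2.44 (2.15 to 2.75), against 2.17 (2.02 to 2.33) in other spots. It was the highest of the genes ranked, which excluded ribosomal protein, mitochondrial, haemoglobin and Y-linked genes and Xist. Angptl4, an inhibitor of lipoprotein lipase, had 32.3 and 151 CPM (1.93, 1.60 to 2.26). Ucp3, a mitochondrial uncoupling protein, had 13.9 and 42.3 CPM (1.30, 0.79 to 1.85), and Acot1, an acyl-CoA thioesterase, 31.5 and 75.2 CPM (0.95, 0.61 to 1.31). These were the 4 of 11 counted PPAR-type genes that were 1.5-fold higher, with 0 lower and a list median of 0.39, against 0.21 in other spots. Over all genes compared, 6.17% were 1.5-fold higher and 3.71% lower. Of 19 fatty acid oxidation genes 1 was 1.5-fold higher, Etfdh, which passes electrons from acyl-CoA dehydrogenases to ubiquinone (0.95, 0.80 to 1.11), and the median was 0.07. That count, 1 of 19, is close to the share over all genes compared.

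RNA of the mitochondrial genome was the group farthest below in the PD1 KO section. Of 13 genes 12 were 1.5-fold lower, against 3.71% of all genes compared, and the list median was -0.99, or -0.68 by plain CPM. mt-Co1 had 82640 and 48173 CPM, and mt-Atp8, with 80.7 and 79.0 CPM, was the exception at -0.34. The list median in other spots was -1.05. Nuclear respiratory chain genes had a median of -0.06, or 0.24 by plain CPM. Ribosomal protein genes, 81 of them counted, had a median of -0.43, with 12 lower by 1.5-fold.

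Cell cycle and immediate early genes were higher in part. Of 20 counted cell cycle genes 7 were 1.5-fold higher in PD1 KO low-matrix spots and 0 lower, with a list median of 0.44, against 0.58 in other spots. Over all genes compared, 6.17% were 1.5-fold higher and 3.71% lower. Prc1, a regulator of the spindle midzone, had 10.5 and 33.4 CPM (1.37, 0.78 to 2.00), and Ccna2, cyclin A2, 21.4 and 49.0 CPM (0.89, 0.47 to 1.33). Mki67, a marker of all cycling phases, had 48.4 and 44.8 CPM and lay at -0.42 (-0.73 to -0.10). Of 9 immediate early genes 3 were 1.5-fold higher, namely Egr1 (1.78, 1.19 to 2.43), the phosphatase gene Dusp1 (0.93, 0.64 to 1.24) and Jun (0.66, 0.36 to 0.97). Tfrc had a ratio of 1.25 (1.07 to 1.44).

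The genes ranked next to Pdk4, Angptl4 and Egr1 had few UMIs in the PD1 Het low-matrix spots. Hdac9, a class II histone deacetylase of muscle, had 12 and 135 UMIs (2.22, 1.37 to 3.21). Rictor, a subunit of the mTORC2 kinase, had 12 and 91 UMIs (1.65). Fam214a, Dck, Casq1, Wdr89, Ccng2, Rrm2b, Cap1, Prc1 and C3 were also among the highest 15, from 1.62 down to 1.36. At the other end were Dhrs11, with 121 and 102 UMIs (-1.52, -1.91 to -1.12), Polr2l, a small subunit shared by the RNA polymerases (-1.32, -1.58 to -1.06), and Nrp1, a coreceptor for VEGF and semaphorins (-1.27, -1.87 to -0.68). Efemp2, a fibulin of elastic fibres, lay at -1.19. Eno1 lay at -1.01, but pseudogene copies can take part of its reads.

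Nppa, Myh7 and Clu headed the genes whose ratio was lower in low-matrix than in other spots. Nppa had 89.4 and 161 CPM in low-matrix spots, a relative ratio of 0.55 (0.34 to 0.76), against 428 and 2624 CPM in other spots, or 2.31 (2.27 to 2.36). Myh7 had 32.3 and 38.8 CPM in low-matrix spots (-0.04, -0.41 to 0.34) against 44.2 and 164 CPM in other spots (1.59, 1.45 to 1.74). Clu lay at -0.02 (-0.25 to 0.21) against 1.30 (1.23 to 1.38), Ankrd1 at 0.00 (-0.10 to 0.10) against 0.52 (0.47 to 0.56), and Uchl1 at -0.41 against 0.33. Acta1 was the 1 fetal and stress gene of 15 that was 1.5-fold higher in the PD1 KO low-matrix spots, with 85.6 and 182 CPM (0.78), and Rcan1 the 1 that was lower (-0.60). Over all genes compared, 6.17% were 1.5-fold higher and 3.71% lower, so 1 of 15 each way is near those shares. The list median was -0.02 in low-matrix and 0.32 in other spots. Lyz2 lay at -0.23 (-0.53 to 0.07) against 0.48 (0.37 to 0.59), and the macrophage list had medians of -0.43 and -0.10. For Nppa, Myh7, Clu, Ankrd1 and Lyz2 the intervals of the 2 kinds of spots did not overlap, but they cover counting error only, and the difference of ratios has no replicate check.

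Outside the haemoglobin genes, which were not ranked, Eln had the largest shift the other way among genes ranked, with 182 and 296 CPM in low-matrix spots (0.39, 0.24 to 0.54) against 1036 and 952 CPM in other spots (-0.42, -0.46 to -0.39). Iqgap1, a scaffold of the cell cortex, lay at 1.06 (0.63 to 1.51) against 0.26 (0.10 to 0.42). Fibroblast markers had list medians of -0.16 and -0.18 in low-matrix and other spots, and 0 of 10 passed 1.5-fold in low-matrix spots. In the macrophage list Tyrobp (-0.75) and Fcer1g (-0.65) were 1.5-fold lower in PD1 KO low-matrix spots, and of the resident macrophage genes Stab1 (-0.65) and Pf4 (-0.60) were. These were 2 of 7 and 2 of 4 counted genes, against 3.71% of all genes compared. The resident macrophage median was -0.16. On the plain CPM scale the medians were 0.14 for fibroblast markers, -0.13 for macrophage markers and 0.14 for resident macrophage genes. The macrophage differences thus depended on the scale.

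**Figure D5:**
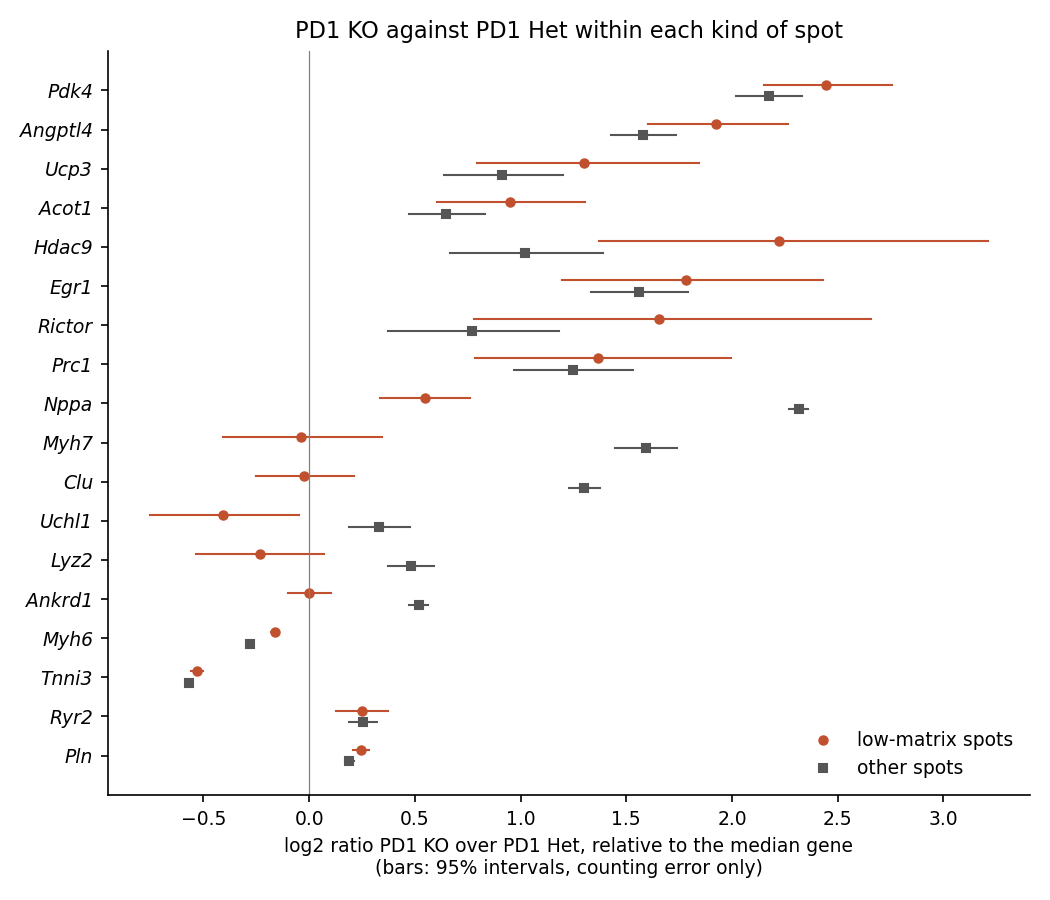
Relative log2 ratio of PD1 KO over PD1 Het (horizontal axis) for named genes in low-matrix spots (red circles) and other spots (grey squares); bars are 95% intervals for counting error only. Pdk4, Angptl4 and Egr1 lie far to the right in both kinds of spots, whereas Nppa, Myh7 and Clu lie near 0 or at 0.55 in low-matrix spots and between 1.30 and 2.31 in other spots.

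The targeted gene Pdcd1 had 0 UMIs in low-matrix spots of either section, below the limits of 1.13 and 0.577 CPM, so its loss could not be seen at this depth and gave no check of the genotypes. The PD-L1 gene Cd274, a ligand of the receptor, had 1 and 16 UMIs, or 0.375 and 3.08 CPM, with a relative log2 ratio of 2.73 (0.04 to 8.12). Pdcd1lg2, which encodes the ligand PD-L2, had 0 in both.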

How the data were processed

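Visium spatial RNA-seq of 1 heart section per genotype was analysed. The deposited matrices hold whole-number UMI counts for 32285 genes in each spot. Per the file headers the authors' software was Space Ranger 1.1.0, and the submitters' processing notes name the builds mm10 and GRCm38. Its settings, and the rule by which spots were kept, were not stated in the labels or headers. Gene positions are those of GRCm38. Groups came from the sample labels.

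Spots with at least 500 UMIs were kept, and the 1 in 5 with the smallest matrix share were taken per section, rounded down. UMIs were summed over spots, scaled to CPM, and compared as log2 ratios relative to the median gene. Ratios of 1.5-fold or more were counted among genes with at least 200 UMIs in each section, or 100 UMIs in low-matrix spots of both sections together for PD1 KO over PD1 Het. Intervals are exact (Poisson, or binomial conditional on the summed count) at 95%, and a count of 0 allows 3 counts. UMIs of one section are counting evidence only, and each genotype is 1 section, so no p-value was computed. No doublet step applies to spots, and no cell-type deconvolution was run.

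Variation between spots is the coefficient of variation left after the Poisson part is taken off. Genes named are the 15 highest and 15 lowest of each comparison, the 10 at each end of the difference between low-matrix and other spots, the 15 most variable, and up to 4 per gene list. Other list members are named with the counts of their list, and a few genes that the rule names are not reported here. The members and the 45 gene lists (514 genes, of which 2 symbols, Aldoa and Ccl21a, each stand for 2 gene IDs and were not matched) were chosen with earlier results of these data known. Alternatives covered group size, depth, ranking genes, scaling (including TMM factors from edgeR 4.0.16), comparison spots and count filters. The computation was tested on simulated data. Python 3.11.15, numpy 2.4.6, scipy 1.17.1, pandas 2.3.3, matplotlib 3.10.9 and R 4.3.3 were used.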

Additional observations from a re-analysis of the deposited data

Results flagged for a closer look

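Of the haemoglobin genes, 3 were at least 1.5-fold lower in low-matrix than in other spots of the PD1 Het section and at least 1.5-fold higher in those of the PD1 KO section. Hba-a1 had relative log2 ratios of -0.72 and 0.73, Hbb-bt -0.63 and 0.73, and Hba-a2 -0.65 and 0.66. These were the only 3 of 6130 genes past 1.5-fold in opposite directions, and the difference between sections was not tested. Hbb-bs, the most abundant, lay at -0.48 and 0.69 and so did not pass in PD1 Het. Near-identical copies make the value of each single gene uncertain.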

How the results depend on the processing

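The reported counts are 0 genes higher and 153 lower in low-matrix spots of both sections, and 439 higher and 264 lower in PD1 KO. They moved with these settings, and where no construction is named the cause was not tested. With the lowest 1 in 10 spots, 290 genes were higher in PD1 KO. With the longer matrix list ranking the spots, 3 genes were higher in both sections. With spots chosen on a random part of the UMIs and values from the rest, so on fewer UMIs, 98 were lower in both sections, and 291 and 174 were higher and lower in PD1 KO. Thinning each spot to 5000 UMIs gave 71, 131 and 76. Without the median gene the PD1 KO counts were 1525 and 33, and without mitochondrial UMIs 683 and 144. Against the second quintile alone 0 were lower in both sections, and without the top quintile 43. Filters of at least 50 UMIs gave 9 higher and 328 lower, at least 1000 gave 54 lower, and no filter gave 336 and 1037. For PD1 KO, at least 30 UMIs gave 1012 and 673, at least 500 gave 61 and 41, and no filter gave 2492 and 2558. A common matrix share limit gave 207 higher. TMM factors, size factors, mean CPM per spot, the lowest 1 in 3 spots, deeper spots and collagens alone kept all 4 counts within 1.5 times, but not always the same genes. Of the 439 genes higher in PD1 KO, deeper spots called 410 again, collagens alone 344 and the lowest 1 in 3 spots 236. The lowest 1 in 10 spots called 138 of them again, the common limit 83 and thinning 35, with fewer genes tested (4505, 4002 and 1935). Of the 153 genes lower in both sections, the lowest 1 in 3 spots called 138 again.

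Of 188 named or list values past 1.5-fold, 153 to 186 stayed past it over 11 settings. Thinning reversed 4 of them, Alas2 (0.21, PD1 Het within), Adhfe1 (-0.48, PD1 KO within), and Slc1a5 (0.0857, PD1 KO within, and 0.13, PD1 KO over PD1 Het). Thinned ranking shared 71.6% and 67.6% of the members, and choice on a random part of the UMIs 81.5% and 85.9%. Both rank spots on fewer matrix UMIs than the full counts, so neither measures how stable the choice at full depth is. No paired analysis was possible because each genotype is 1 section.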
